A study of Homo sapiens with 12 samples.

Results

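The mRNAs of 10 enzymes of serine synthesis and one-carbon (folate) metabolism were followed in 2 human cell lines labelled as hepatoma in which ARD1 had been lowered. The 10 genes were chosen by name: PHGDH, PSAT1 and PSPH for serine synthesis, SHMT1 and MTHFD1 for the cytosolic folate pathway, and SHMT2, MTHFD2, MTHFD1L, MTHFD2L and ALDH1L2 for the mitochondrial one. All 10 were found, by gene identifier, among the 22730 genes listed in both count tables of the series, and all 10 passed the filter on low counts in each line. ARD1, now named NAA10, encodes the enzyme subunit of a complex that acetylates protein N termini, and the series asks how it bears on glutathione synthesis and on ferroptosis in liver cancer. RNA-seq was done on 12 libraries in 4 groups of 3. The groups were cells labelled Hep-3B given an siRNA against ARD1 (siARD1), cells labelled Hep-3B given a negative-control siRNA, Huh-7 cells given siARD1, and Huh-7 cells given the negative control. Hep-3B and Huh-7 are names of established hepatoma lines, and no time after transfection or number of siRNA sequences is stated in the sources used here. The labels do not say whether the 3 libraries of a group came from separate cultures, so each p-value measures only the spread between these libraries, which may be technical.

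Serine is made in the cytosol from a glycolytic intermediate. PHGDH oxidises it, PSAT1 adds an amino group and PSPH removes the phosphate. A serine hydroxymethyltransferase, SHMT1 in the cytosol or SHMT2 in mitochondria, then splits serine into glycine and a carbon unit carried by tetrahydrofolate. The mitochondrial branch oxidises this unit (MTHFD2 and its relative MTHFD2L) and releases it as formate (MTHFD1L) or burns it to carbon dioxide with the formation of NADPH (ALDH1L2). Formate leaves for the cytosol, where the trifunctional enzyme MTHFD1 puts it back on folate for the synthesis of purines and thymidylate. Glycine, and cysteine made with the sulfur of methionine and the carbons of serine, are building blocks of glutathione.

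The total count per library ran from 17327615 to 25960237. Levels are counts relative to library size, scaled with TMM factors (CPM), and a gene is called changed at an edgeR adjusted p under 0.05. NAA10 had 10.9, 15.6 and 14.4 CPM in the siARD1 libraries labelled Hep-3B, against 48.4, 58.7 and 58.7 CPM in their controls (log2 fold change -2.01, edgeR adjusted p = 1.36e-07). In Huh-7 it had 13.2, 9.86 and 9.99 CPM after siARD1, against 165.5, 155.5 and 200.2 CPM in the controls (log2 fold change -3.98, edgeR adjusted p = 1.66e-08). The libraries labelled Hep-3B held some markers of hepatoma cells and lacked others. Of 10 such markers 6, with ALB among them, had a mean of at least 1 CPM over both groups there, and AFP, APOA1, GPC3 and TTR did not. AFP stood at 0.261 to 0.345 CPM after siARD1 and at 1.02 to 1.97 CPM in the controls. ALB stood at 0.564 to 1.09 CPM after siARD1 and at 4.0 to 6.20 CPM in the controls. TTR was at 0 in the 3 siARD1 libraries. FGB had 135 to 141 CPM after siARD1 and 297 to 368 CPM in these controls, and HNF4A had 43.4 to 48.6 CPM after siARD1 and 42.6 to 47.3 CPM in the controls. Hep-3B is known to secrete the products of AFP and ALB, so whether these libraries come from that line is in doubt, and they are named by their label. In Huh-7 all 10 markers passed that level. The summed level of the list was 215.5 to 225.4 CPM after siARD1 against 404.2 to 488.7 CPM in the controls labelled Hep-3B, and 27020 to 31500 CPM after siARD1 against 35140 to 36680 CPM in the controls of Huh-7. This sum was lower after siARD1 in both lines, but not every marker in it fell. With the Hep-3B label FGB, the most abundant of them, ALB, SERPINA1, TF and AFP fell, while HNF4A, GPC3 and APOB did not pass. In Huh-7 AFP, TF, SERPINA1, GPC3 and APOA1 fell, while ALB, APOB, FGB, TTR and HNF4A did not pass. The part of this sum in the results on the enzymes was not tested. Summed fibroblast markers were also lower in Huh-7 (27.7 to 28.9 CPM after siARD1 against 35.3 to 40.4 CPM in the controls), with the same limit. This fall was mostly that of COL1A2 (mean 16.2 CPM after siARD1 against 25.5 CPM in the controls). COL1A1 fell from a mean under 1 CPM, and PDGFRB (log2 fold change 0.10) and COL3A1 (-0.14) did not pass. Summed markers of fibroblasts with the Hep-3B label, and of leukocytes and endothelial cells in both lines, overlapped between the groups. With the Hep-3B label the endothelial marker KDR had 47.5 to 57.6 CPM after siARD1 and 33.4 to 42.3 CPM in the controls. The fibroblast marker DCN had 21.7 to 27.4 CPM after siARD1 and 20.3 to 26.8 CPM in the controls there. In Huh-7 KDR was at 0 to 0.0519 CPM and DCN at 0 to 0.0523 CPM. Summed epithelial markers (KRT8, KRT18, EPCAM and CDH1) went opposite ways without overlap, with 842.5 to 1002 CPM after siARD1 against 1304 to 1421 CPM in the controls labelled Hep-3B, and 2433 to 2841 CPM after siARD1 against 1428 to 1535 CPM in the controls of Huh-7. KRT8 and KRT18 fell with the Hep-3B label (log2 fold changes -0.64 and -0.41) and rose in Huh-7 (0.92 and 1.04). CDH1 and EPCAM, which are less abundant, fell in Huh-7 (-0.66 and -0.49), so the summed rise there was that of the keratins alone. With the Hep-3B label CDH1 did not pass (-0.06, edgeR adjusted p = 0.72). The part of these changes in the results on the enzymes was not tested. In bulk RNA, fewer cells of one kind and less RNA per cell cannot be told apart.

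PSAT1, MTHFD2, MTHFD1L and MTHFD1 are shown with sequence from around their transcription starts, because PSAT1 and MTHFD2 were the most and the least abundant of the 10 mRNAs in the controls labelled Hep-3B and both rose there, and MTHFD1L and MTHFD1 responded differently in the 2 lines. RefSeq promoter windows (GRCh38.p14, 250 bases before to 50 after an annotated start) were held for 7 of the 10 genes, in 11 windows. PSPH, SHMT2 and ALDH1L2 were not among them. Capitals in the first 2 stretches mark CCAAT, the box that the factor NF-Y binds.
PSAT1, chr9:78296875-78297124, + strand: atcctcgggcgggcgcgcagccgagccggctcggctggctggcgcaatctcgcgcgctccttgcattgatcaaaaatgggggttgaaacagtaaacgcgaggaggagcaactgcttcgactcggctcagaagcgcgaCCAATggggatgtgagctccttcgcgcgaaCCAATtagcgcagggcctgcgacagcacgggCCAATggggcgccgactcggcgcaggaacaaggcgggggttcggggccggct
MTHFD2, chr2:74198365-74198561, + strand: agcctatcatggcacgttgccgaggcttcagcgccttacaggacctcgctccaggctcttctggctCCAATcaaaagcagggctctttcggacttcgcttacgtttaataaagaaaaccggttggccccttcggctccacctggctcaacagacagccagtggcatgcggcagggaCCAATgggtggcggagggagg
In the next 3 stretches of 30 bases, capitals mark CACGTG, the E-box bound by MYC and related factors, in the first and the third, and TGATGNAA, the composite element bound by dimers of ATF4 with C/EBP proteins, in the second.
MTHFD1L, chr6:150866320-150866349, + strand: cacgcccggctcCACGTGcgcagccggccg
MTHFD1L, chr6:150866346-150866375, + strand: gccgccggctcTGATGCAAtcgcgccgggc
MTHFD1, chr14:64388326-64388355, + strand: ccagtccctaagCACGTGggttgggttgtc

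Both strands of each window were searched, and no match of one motif overlapped a match of another. CCAAT was held by 6 of the 7 genes (MTHFD1, MTHFD1L, MTHFD2, PHGDH, PSAT1 and SHMT1) and by 39.7% of the 27305 genes in the table. It is a short and common motif that was added to the search after these windows had been read. In PSAT1 its 3 copies began at -113, -83 and -52 relative to the start, and in MTHFD2 its 2 copies began at -184 and -74. CACGTG was held by MTHFD1 and MTHFD1L, and by 8.77% of all genes. TGATGNAA was held by MTHFD1L alone among the 7, and by 4.46% of all genes. TGACNNNGC, the core of the element bound by NFE2L2, was held by MTHFD2 and MTHFD2L, and by 16.1% of all genes. These matches describe letters in a window and say nothing of whether a factor binds there.

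In the controls, the 10 mRNAs spanned a wide range of levels, compared here per kilobase of merged exon length (CPM per kilobase). PSAT1 was the highest in both lines, with 222 ± 47.0 CPM per kilobase in the controls labelled Hep-3B and 212 ± 19.7 in the Huh-7 controls (SD, n = 3 each). In the controls labelled Hep-3B it was followed by SHMT2 (80.8 ± 5.57), PHGDH (39.2 ± 3.95), PSPH (27.5 ± 5.36), ALDH1L2 (23.6 ± 3.38), MTHFD1 (10.8 ± 0.51), MTHFD1L (9.01 ± 1.65), SHMT1 (6.41 ± 0.472), MTHFD2L (0.617 ± 0.0713) and MTHFD2 (0.389 ± 0.0691). PSPH and ALDH1L2 were the only neighbours in that order whose libraries overlapped. In the Huh-7 controls the order was PSAT1, PSPH (80.7 ± 3.90), SHMT2 (54.6 ± 0.874), PHGDH (31.7 ± 2.58), SHMT1 (11.3 ± 0.511), MTHFD2 (9.59 ± 0.554), MTHFD1L (7.24 ± 0.497), MTHFD1 (4.54 ± 0.362), ALDH1L2 (2.53 ± 0.111) and MTHFD2L (0.547 ± 0.0502), with no overlap between neighbours. With the length of the longest transcript in place of merged exons, SHMT1 moved from place 8 to 6 in the controls labelled Hep-3B, and PHGDH and SHMT2 exchanged places 3 and 4 in Huh-7.

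Among these mRNAs, those of MTHFD2 and ALDH1L2 differed most between the controls of the 2 lines, and differences were not confined to mitochondrial enzymes. Control levels of MTHFD2 were lower by 4.46 on the log2 scale in the libraries labelled Hep-3B (log2 difference -4.46, SE 0.15), and those of ALDH1L2 were higher by 3.39 (SE 0.15). PSPH (-1.40) and SHMT1 (-0.66) were also lower there, and MTHFD1 (1.41), SHMT2 (0.73), MTHFD1L (0.47), PHGDH (0.47) and MTHFD2L (0.33) were higher. These 9 passed an edgeR adjusted p of 0.05, where 80.7% of all 17122 genes did so. PSAT1 did not (0.23, SE 0.18, edgeR adjusted p = 0.257). Line, culture and sequencing run cannot be told apart in this comparison. MTHFD2 had only 115 counts in all over the controls labelled Hep-3B, so the size of its difference is uncertain.

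**Figure D1:**
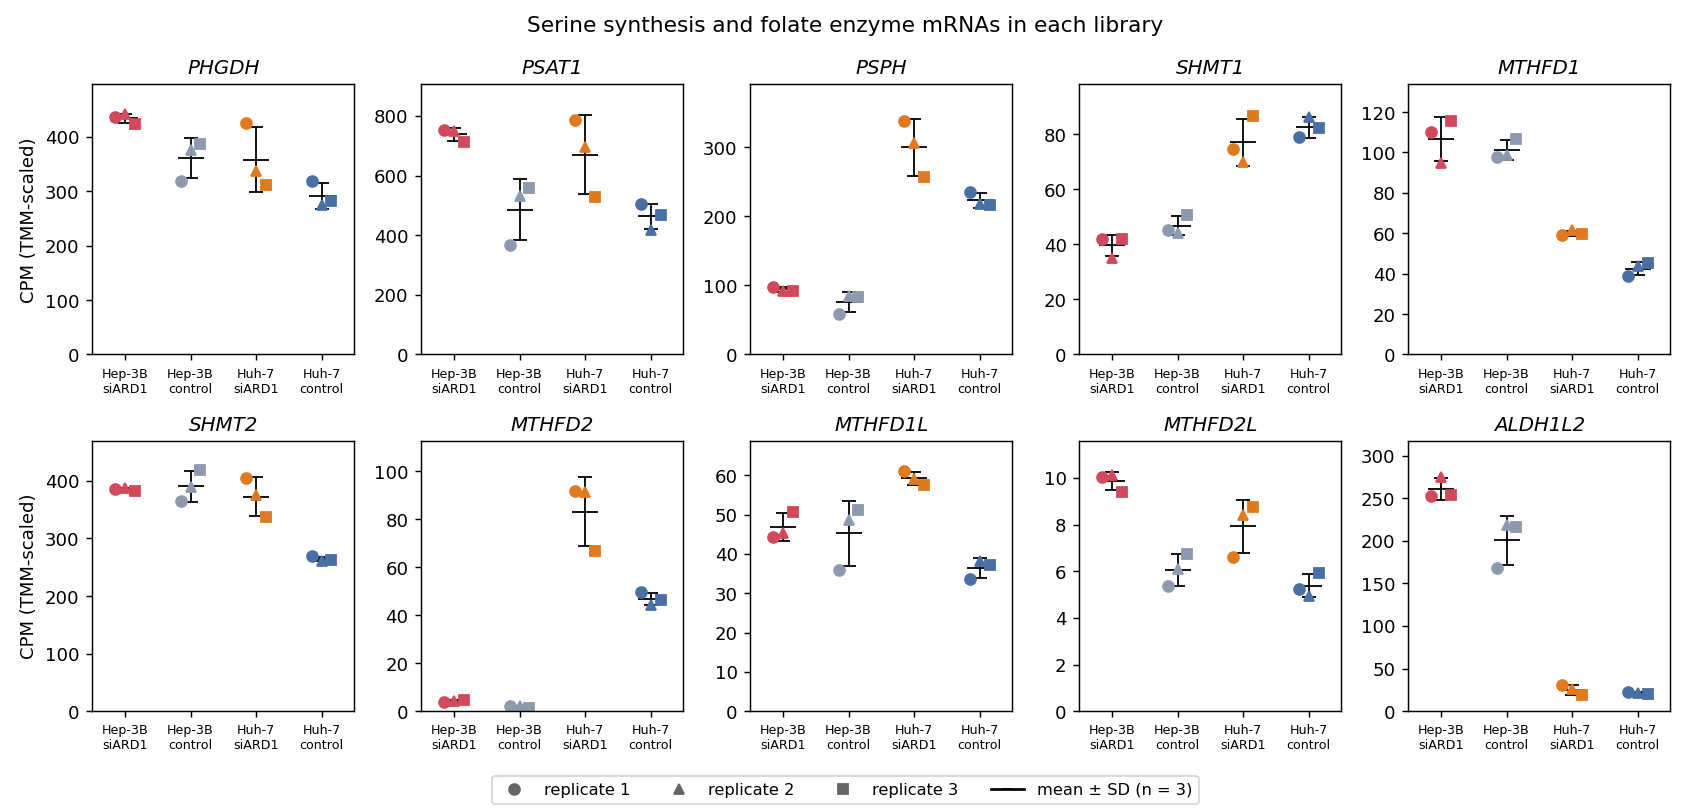
Level of each of the 10 mRNAs in every library, as TMM-scaled CPM on a linear axis from 0, with the mean and SD of the 3 libraries of a group. Symbols mark the replicate number, and in both lines the siARD1 libraries of PSAT1, PSPH, MTHFD2 and MTHFD2L lie above all controls.

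After siARD1, 5 of the 10 mRNAs rose and 1 fell in the libraries labelled Hep-3B, and 6 rose in Huh-7. PSAT1, PHGDH, MTHFD2, MTHFD2L and ALDH1L2 rose and SHMT1 fell with the Hep-3B label. PSPH, MTHFD1, SHMT2, MTHFD2, MTHFD1L and MTHFD2L rose in Huh-7. MTHFD2 and MTHFD2L, the paired dehydrogenases of the mitochondrial branch, were the enzymes that passed the test in both lines. Over all 15762 genes tested with the Hep-3B label 32.2% changed (16.8% rose, 15.3% fell), and over all 15919 genes tested in Huh-7 40.1% changed (21.2% rose, 18.9% fell). With upper-quartile factors, 39.7% of all calls in Huh-7 were rises, against 52.9% with TMM factors, while the number of the 10 enzymes that rose stayed at 6. The median log2 fold change of the 10 was 0.29 with the Hep-3B label and 0.49 in Huh-7, beside -0.01 and -0.01 over all tested genes. All siARD1 libraries lay above all controls for 6 of the 10 with the Hep-3B label, as for 22.7% of all genes, and below for 1, as for 22.3% (45% without overlap in all). In Huh-7 they lay above for 7, as for 26.1% of all genes, and for SHMT1, PHGDH and ALDH1L2 the groups overlapped (over all genes, 23.9% lay below and 50% were without overlap).

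Of the serine synthesis enzymes, PHGDH and PSAT1 rose with the Hep-3B label and PSPH rose in Huh-7. The log2 fold changes of all 3 were above 0, at 0.26 to 0.60 with the Hep-3B label and 0.30 to 0.53 in Huh-7. PHGDH (ENSG00000092621, GRCh38 chromosome 1, 119648411 to 119744226), the dehydrogenase of the first step, had 436, 441 and 424 CPM in the siARD1 libraries labelled Hep-3B, against 320, 376 and 388 CPM in the controls. The groups did not overlap, and the first control was the low one. The log2 fold change was 0.26 (SE 0.07, edgeR adjusted p = 0.00726), and with both lines in one fit the adjusted p was 0.0527. In Huh-7 PHGDH had 425, 337 and 312 CPM after siARD1, against 319, 275 and 282 CPM in the controls. Here the third siARD1 library fell below the first control, and the log2 fold change of 0.30 (SE 0.12) did not pass (edgeR adjusted p = 0.0866). Without that siARD1 library it was 0.39 (adjusted p = 0.0167), and limma-voom with all libraries gave an adjusted p of 0.0117.

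PSAT1 (ENSG00000135069, chromosome 9, 78297143 to 78330093), the aminotransferase, had 752, 748 and 713 CPM after siARD1 with the Hep-3B label, against 368, 530.0 and 559 CPM in the controls. All siARD1 libraries were higher, and the first control was again the low one. PSAT1 rose by 0.60 on the log2 scale (SE 0.15, edgeR adjusted p = 0.0216). This call was lost when any one of the siARD1 libraries was left out, with adjusted p of 0.0593, 0.115 and 0.0859. In Huh-7 PSAT1 had 786, 697 and 527 CPM after siARD1, against 504, 418 and 466 CPM in the controls. The groups did not overlap, though the third siARD1 library was close to the controls. The log2 fold change of 0.53 (SE 0.17) missed the threshold (edgeR adjusted p = 0.0588) and passed with DESeq2 (adjusted p = 0.0122) and limma-voom (adjusted p = 0.000477). It was 0.68 (adjusted p = 2.51e-07) without the third siARD1 library and 0.41 (adjusted p = 0.0259) without the first.

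PSPH (ENSG00000146733, chromosome 7, 56011051 to 56051604), the phosphatase of the last step, had 98.1, 92.1 and 92.6 CPM after siARD1 with the Hep-3B label, against 58.8, 85.4 and 83.3 CPM in the controls. The groups did not overlap, and the log2 fold change of 0.32 (SE 0.12) did not pass (edgeR adjusted p = 0.0725). It passed with DESeq2 (adjusted p = 0.0192) and without the second control (0.41, adjusted p = 0.0228) or the third (0.39, adjusted p = 0.0495). In Huh-7 PSPH had 338, 306 and 256 CPM after siARD1, against 235, 217 and 216 CPM in the controls. No library overlapped, and PSPH rose by 0.43 on the log2 scale (SE 0.08, edgeR adjusted p = 0.00124). None of the 3 serine synthesis genes differed between the lines in its response by the test of the difference. The differences, Hep-3B label minus Huh-7, were -0.01 for PHGDH (95% interval -0.29 to 0.26), 0.09 for PSAT1 (-0.41 to 0.58) and -0.09 for PSPH (-0.46 to 0.27). These intervals leave room for differences as large as the responses themselves.

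Of the cytosolic folate enzymes, SHMT1 fell with the Hep-3B label and MTHFD1 rose in Huh-7. SHMT1 (ENSG00000176974, chromosome 17, 18327860 to 18363563), the cytosolic hydroxymethyltransferase, had 41.8, 35.2 and 41.9 CPM after siARD1 with the Hep-3B label, against 45.2, 44.2 and 50.6 CPM in the controls. All siARD1 libraries were lower, by small margins. The fall of SHMT1 (-0.24 on the log2 scale, SE 0.09, edgeR adjusted p = 0.0452) was lost with DESeq2 (adjusted p = 0.0582) and without either the second (0.0549) or the third control (0.19) or the first (0.0621) or second siARD1 library (0.195). In Huh-7 SHMT1 had 74.5, 70.1 and 86.6 CPM after siARD1, against 78.9, 86.4 and 82.1 CPM in the controls. The groups overlapped, with the third siARD1 library the highest of all 6. The log2 fold change was -0.10 (SE 0.07, edgeR adjusted p = 0.271), and -0.19 (adjusted p = 0.0195) without that library.

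MTHFD1 (ENSG00000100714, chromosome 14, 64388031 to 64463457), which activates formate for purine and thymidylate synthesis, had 110.2, 94.7 and 115.5 CPM after siARD1 with the Hep-3B label, against 98.0, 98.9 and 107 CPM in the controls. The groups overlapped, and the log2 fold change was 0.08 (SE 0.07, edgeR adjusted p = 0.456). In Huh-7 MTHFD1 had 58.9, 61.5 and 59.6 CPM after siARD1, against 38.7, 43.9 and 45.1 CPM in the controls. Every siARD1 library was well above every control, and MTHFD1 rose by 0.49 on the log2 scale (SE 0.07, edgeR adjusted p = 5.9e-06). The response differed between the lines by -0.40 (95% interval -0.60 to -0.19, edgeR adjusted p = 0.00404). SHMT1 did not differ by that test (-0.12, interval -0.35 to 0.11).

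Among the mitochondrial enzymes, 3 of 5 rose with the Hep-3B label (median log2 fold change 0.38) and 4 of 5 rose in Huh-7 (median 0.56). Over all tested genes, 16.8% and 21.2% rose, with a median of -0.01 in each line. SHMT2 (ENSG00000182199, chromosome 12, 57229327 to 57234935), which feeds serine into the mitochondrial branch, had 387, 388 and 383 CPM after siARD1 with the Hep-3B label, against 365, 389 and 419 CPM in the controls. The siARD1 libraries lay inside the range of the controls, and the log2 fold change was -0.02 (95% interval -0.14 to 0.10, edgeR adjusted p = 0.847). In Huh-7 SHMT2 had 404, 375 and 337 CPM after siARD1, against 269, 261 and 262 CPM in the controls. No library overlapped, and SHMT2 rose by 0.49 on the log2 scale (SE 0.06, edgeR adjusted p = 9.75e-07). Its response was lower with the Hep-3B label than in Huh-7 by a log2 difference of -0.50 (interval -0.67 to -0.32, edgeR adjusted p = 9e-05). Its exons share 33 bases with NDUFA4L2 on the opposite strand, which had 118864 counts in the table labelled Hep-3B and 243 in the Huh-7 table.

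MTHFD2 (ENSG00000065911, chromosome 2, 74198562 to 74217565), the NAD-dependent dehydrogenase and cyclohydrolase of the mitochondrial branch, had 3.68, 4.34 and 4.74 CPM after siARD1 with the Hep-3B label, against 2.09, 2.09 and 1.50 CPM in the controls. All siARD1 libraries were higher, from counts of 64, 100 and 123 after siARD1, against 48, 36 and 31 in the controls. MTHFD2 rose by 1.18 on the log2 scale (SE 0.21, edgeR adjusted p = 0.000477), the largest log2 fold change among the 10 in either line. In Huh-7 it had 91.5, 91.3 and 66.6 CPM after siARD1, against 49.6, 44.2 and 46.4 CPM in the controls. The groups stood apart, with the third siARD1 library the lowest of its group, and MTHFD2 rose by 0.83 on the log2 scale (SE 0.11, edgeR adjusted p = 0.000257). The difference between the lines, 0.37 (95% interval -0.07 to 0.81), did not pass (edgeR adjusted p = 0.218). The annotation names 7 pseudogenes of MTHFD2 and none has a row in the tables, and SLC4A5 overlaps 27.2% of its exon bases on the opposite strand with 29 counts in all with the Hep-3B label and 97 in Huh-7. How reads that fit several places were counted is not given in the sources used here, so the level of MTHFD2 at so few counts is uncertain.

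MTHFD2L (ENSG00000163738, chromosome 4, 74114174 to 74303099), the relative of MTHFD2 with the same reactions, had 10.1, 10.1 and 9.40 CPM after siARD1 with the Hep-3B label, against 5.35, 6.09 and 6.75 CPM in the controls. The groups did not overlap, and MTHFD2L rose by 0.70 on the log2 scale (SE 0.14, edgeR adjusted p = 0.000951). In Huh-7 it had 6.61, 8.41 and 8.74 CPM after siARD1, against 5.24, 4.96 and 5.92 CPM in the controls. Again no library overlapped, and it rose by 0.56 on the log2 scale (SE 0.15, edgeR adjusted p = 0.00477). The first siARD1 library, the highest in Huh-7 for 7 of the 10 enzymes, was the lowest of its group for MTHFD2L. The difference between the lines was 0.16 (95% interval -0.24 to 0.57).

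MTHFD1L (ENSG00000120254, chromosome 6, 150865549 to 151101887), the formate-releasing synthetase, had 44.3, 45.4 and 50.8 CPM after siARD1 with the Hep-3B label, against 35.8, 48.7 and 51.3 CPM in the controls. The controls bracketed the siARD1 libraries, and the log2 fold change was 0.06 (SE 0.12, edgeR adjusted p = 0.751). In Huh-7 it had 61.1, 59.0 and 57.7 CPM after siARD1, against 33.6, 38.3 and 37.2 CPM in the controls. The groups stood far apart, and MTHFD1L rose by 0.70 on the log2 scale (SE 0.07, edgeR adjusted p = 5.61e-08), the smallest p of the 10 enzymes. The difference between the lines was -0.63 (95% interval -0.90 to -0.36, edgeR adjusted p = 0.00116).

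ALDH1L2 (ENSG00000136010, chromosome 12, 105019784 to 105084577), the formyltetrahydrofolate dehydrogenase that yields NADPH in mitochondria, had 253, 275 and 253 CPM after siARD1 with the Hep-3B label, against 168, 219 and 216 CPM in the controls. The groups did not overlap, and ALDH1L2 rose by 0.38 on the log2 scale (SE 0.09, edgeR adjusted p = 0.0054). In Huh-7 it had 30.9, 25.6 and 19.4 CPM after siARD1, against 22.4, 21.6 and 20.5 CPM in the controls. There the third siARD1 library was the lowest of all 6 and the first was the highest. Its log2 fold change was 0.24 (SE 0.13), which did not pass (edgeR adjusted p = 0.181), and 0.40 (adjusted p = 0.00176) without the third siARD1 library. The difference between the lines was 0.16 (95% interval -0.24 to 0.56).

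**Figure D2:**
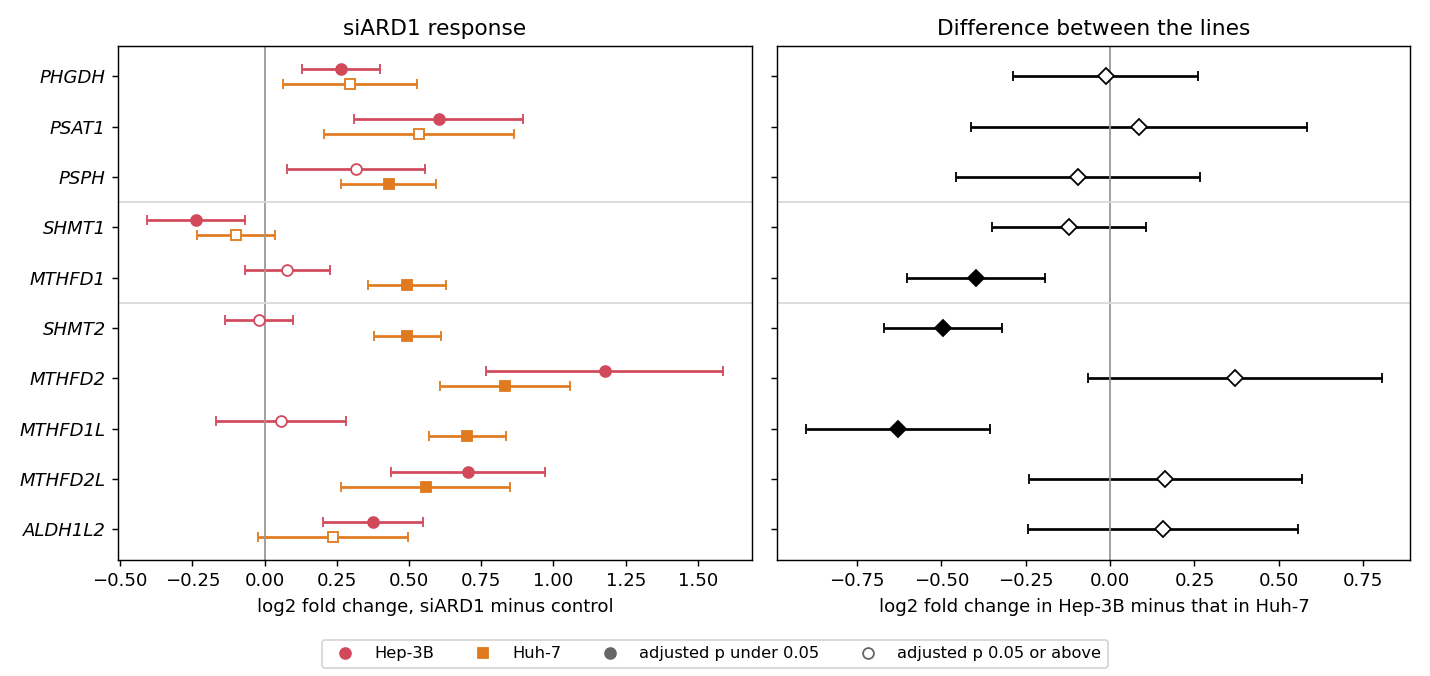
Left, log2 fold change of each of the 10 mRNAs, siARD1 minus control, in the libraries labelled Hep-3B (red circles) and in Huh-7 (orange squares), with approximate 95% intervals and filled symbols for an edgeR adjusted p under 0.05. Right, the difference of the 2 responses, Hep-3B label minus Huh-7, in which MTHFD1 (-0.40), SHMT2 (-0.50) and MTHFD1L (-0.63) are filled.

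The responses of the 2 lines differed for MTHFD1, SHMT2 and MTHFD1L, all larger in Huh-7, and these 3 of 10 stand beside 31.4% of all 17122 genes that differed (15.2% in this direction, 16.2% in the other). The same number of enzymes passed this test under every alternative fit tried. A share of 3 in 10 is close to that of all genes, so the number as such is not particular to the enzymes. For the other 7 the test was not passed, which does not show that the lines responded alike. NAA10 itself differed by this test (log2 difference 2.0, edgeR adjusted p = 1.56e-05). After siARD1 it stood at 0.25 of the control level with the Hep-3B label and at 0.063 in Huh-7. The test therefore cannot tell the line apart from the depth of the NAA10 fall.

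Single libraries weighed on several of these results. The first control labelled Hep-3B was the lowest control for 8 of the 10 enzymes, while it was the lowest for 35.4% of all tested genes. The third control labelled Hep-3B was the highest control for 7 of the 10, against 34.2% of all tested genes. The third siARD1 library of Huh-7 was the lowest of its group for 7 of the 10, against 33.1% of all tested genes. Its own group's first library was the highest for 7, against 31.6% of all tested genes. Without the third siARD1 library of Huh-7, 9 of the 10 enzymes rose and SHMT1 fell, where 3259 of all 16295 genes tested in that fit rose and 2878 fell. Without the first control labelled Hep-3B the counts stayed at 5 and 1.

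**Figure D3:**
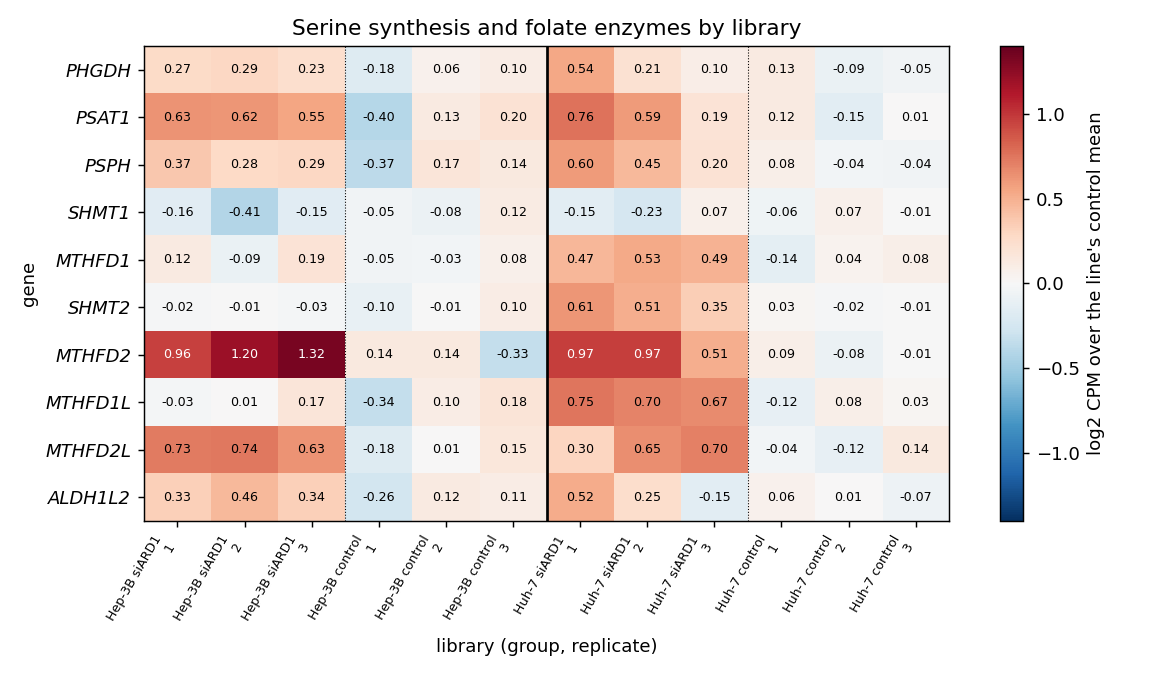
Level of each of the 10 mRNAs (rows) in each of the 12 libraries (columns), as log2 CPM over the mean of the line's controls, with siARD1 libraries left of the controls in each line. The first control labelled Hep-3B is blue for most rows (-0.40 for PSAT1), and the third siARD1 library of Huh-7 is paler than the other siARD1 libraries (0.19 for PSAT1, against 0.76 and 0.59).

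Over the 12 libraries, with the mean of each line taken off, the 3 serine synthesis mRNAs and ALDH1L2 moved closely together (Pearson's r from 0.89 to 0.97 between pairs). MTHFD1, SHMT2 and MTHFD1L formed another closely tied trio (r from 0.83 to 0.90), while the r of SHMT1 with each of the other 9 was below 0. The 12 libraries share 4 groups and their depth, so these values describe the 4 groups as much as single libraries. By the same measure the genes most like PHGDH, of 9761 compared, were RIPK2 (r = 0.97), LYN (0.95), PSAT1 (0.94), SPIRE1 (0.94) and MAML3 (0.94). Those most like MTHFD2 were FBXO10, LAMP2, ZNF326, FBXO30 and SLC30A1, with r from 0.96 to 0.97. Those most like SHMT2 were TRIB3 (r = 0.99), a pseudokinase gene known as a target of ATF4, COA7 (0.99), SMOX (0.97), ZMYND11 (0.97) and ABL1 (0.97). Within the 6 Huh-7 libraries the r of these 5 with SHMT2 was 0.982 to 0.998, while within the 6 labelled Hep-3B it was 0.63 for SMOX, 0.78 for ABL1, 0.83 for ZMYND11, 0.90 for COA7 and 0.93 for TRIB3.

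The ratio of mitochondrial to cytosolic enzyme mRNA was higher after siARD1 for some pairs and not for others. With 3 libraries against 3, the exact two-sided permutation test cannot give a p under 0.1, so no ratio can pass 0.05. The log2 ratio of SHMT2 to SHMT1, per kilobase, was 3.88 ± 0.15 after siARD1 and 3.66 ± 0.06 in the controls labelled Hep-3B (SD, n = 3 each, exact permutation p = 0.1). In Huh-7 it was 2.86 ± 0.27 after siARD1 and 2.27 ± 0.09 in the controls (exact permutation p = 0.1). The siARD1 libraries were above all controls in both lines, by 0.22 and 0.59 on average. With the Hep-3B label SHMT2 did not pass the test and SHMT1 fell, and in Huh-7 SHMT2 rose and SHMT1 did not pass.

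MTHFD2 stood below MTHFD1 with the Hep-3B label and above it in Huh-7. Its log2 ratio to MTHFD1 was -3.71 ± 0.23 after siARD1 and -4.81 ± 0.34 in the controls labelled Hep-3B, with no overlap (exact permutation p = 0.1, n = 3 each). In Huh-7 it was 1.40 ± 0.26 after siARD1 and 1.08 ± 0.19 in the controls, and the groups overlapped (exact permutation p = 0.2, n = 3 each). The ratio of MTHFD2L to MTHFD1 was higher by 0.63 after siARD1 with the Hep-3B label, without overlap, and by 0.05 in Huh-7, where the groups overlapped. The ratio of MTHFD1L to MTHFD1 differed by -0.01 with the Hep-3B label, where the groups overlapped, and was higher by 0.21 in Huh-7, where they did not. In Huh-7, where both MTHFD1 and its mitochondrial partners rose, the ratios to MTHFD1 thus moved less than the mitochondrial mRNAs themselves.

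ALDH1L2 was set against ALDH1L1, its cytosolic counterpart and not one of the 10 enzymes. The log2 ratio was 9.56 ± 0.70 after siARD1 and 8.35 ± 0.45 in the controls labelled Hep-3B, where ALDH1L1 had 38 counts after siARD1 and 62 in the controls over the 3 libraries each. In Huh-7 it was 4.09 ± 0.30 after siARD1 and 3.40 ± 0.07 in the controls. All siARD1 libraries lay above all controls in both lines (exact permutation p = 0.1 in each, n = 3 against 3). With 0.5 CPM added before the ratio was taken, the difference with the Hep-3B label was 0.85 in place of 1.21. ALDH1L1 itself did not pass in either line (log2 fold change -0.80, edgeR adjusted p = 0.136 with the Hep-3B label, and -0.48, adjusted p = 0.0589 in Huh-7).

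**Figure D4:**
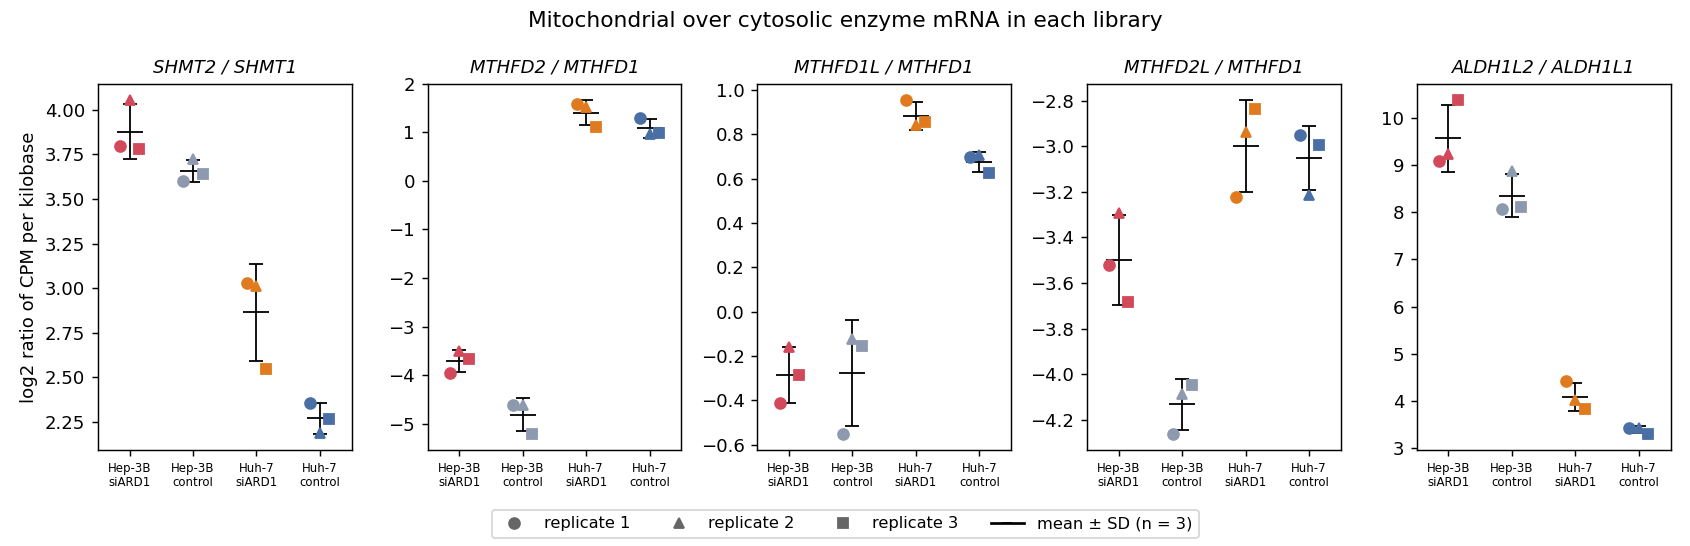
Log2 ratio of each mitochondrial enzyme to its cytosolic counterpart in every library, from CPM per kilobase, with the mean and SD of 3 libraries; each panel has its own range. The siARD1 libraries lie above the controls in both lines for SHMT2 to SHMT1 and ALDH1L2 to ALDH1L1, and with the Hep-3B label for MTHFD2 to MTHFD1 (-3.71 against -4.81).

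The genes around these enzymes were changed in both directions. A list of 39 other genes in or near folate, glycine and serine metabolism had 36 tested with the Hep-3B label, of which 6 rose and 7 fell (median log2 fold change 0.02). It had 35 tested in Huh-7, of which 10 rose and 7 fell (median 0.03). These shares stand beside 16.8% and 15.3% of all genes with the Hep-3B label, and 21.2% and 18.9% in Huh-7. Among 9 other folate enzymes 1 fell with the Hep-3B label and 3 in Huh-7. The fall with the Hep-3B label was in the methionine synthase reductase gene MTRR (log2 fold change -0.47). Those in Huh-7 were in the methionine synthase gene MTR (log2 fold change -0.22), GGH (-0.34), which trims folate chains, and the histidine-degrading enzyme gene FTCD (-1.02).

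In the glycine cleavage system, which breaks glycine down in mitochondria, GCSH was called in opposite directions in the 2 lines. With the Hep-3B label, GCSH, its lipoyl carrier protein, rose by 1.04 on the log2 scale (SE 0.12) and the dehydrogenase DLD by 0.40 on that scale, of 3 tested. In Huh-7, GCSH (-0.47, SE 0.13) and GLDC (-0.23), the decarboxylase, fell, of 4 tested, but for both the groups overlapped. GCSH had 14.8, 20.8 and 14.5 CPM after siARD1 there, against 20.3, 24.6 and 24.5 CPM in the controls. GLDC did not pass with the Hep-3B label (0.46, edgeR adjusted p = 0.451), nor did DLD in Huh-7 (-0.03, adjusted p = 0.689). GLDC was barely detected with the Hep-3B label, with means of 0.60 CPM after siARD1 and 0.45 CPM in the controls. Its mean in the Huh-7 controls was 111 CPM. AMT did not pass the filter on low counts with the Hep-3B label. The difference between the lines was 1.53 for GCSH (edgeR adjusted p = 3.08e-07). Among enzymes of purine synthesis, whose ring takes carbon from formyl-folate, 5 of 6 rose in Huh-7, where 21.2% of all genes rose. Their log2 fold changes were 0.59 for ATIC, 0.50 for ADSL, 0.36 for GART, 0.27 for PFAS and 0.19 for PPAT. PAICS did not pass, and PPAT no longer did with upper-quartile factors (edgeR adjusted p = 0.144). With the Hep-3B label PPAT rose (log2 fold change 0.34) and ATIC (-0.22) and PFAS (-0.28) fell. ATIC and PFAS also differed between the lines by the test of the difference (-0.79 and -0.54, edgeR adjusted p = 1.29e-07 and 0.000168).

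Among carriers of serine, glutamine and folate, the amino acid transporters SLC1A5 (log2 fold change 0.29 with the Hep-3B label, 0.70 in Huh-7) and SLC38A2 (0.17 and 0.56) rose in both lines. SLC1A4 rose in Huh-7 (1.04, edgeR adjusted p = 0.0102) and missed the threshold with the Hep-3B label (0.53, adjusted p = 0.0567). SFXN3, a mitochondrial serine carrier, fell in both (log2 fold changes -0.51 with the Hep-3B label and -1.05 in Huh-7). The reduced folate carrier SLC19A1 fell with the Hep-3B label (-0.29) and rose in Huh-7 (0.21). SFXN1 (-0.24) and FOLR1 (-1.13, SE 0.35) fell with the Hep-3B label. FOLR1 had only 42 counts over the 3 siARD1 libraries and 86 over the 3 controls there. Among other genes listed in or near serine and glycine metabolism, 1 of 9 rose with the Hep-3B label (SDSL). In Huh-7 1 of 8 rose (PCYT2) and 1 fell (SARDH). With the Hep-3B label, the calls of PFAS, SLC1A5, ATIC, SLC38A2, SLC19A1, FOLR1 and SDSL were each lost in 2 to 4 of the 6 fits that left out 1 library, and so were those of SLC1A4, GLDC, SLC19A1, PCYT2, PPAT and SARDH in 2 to 4 of 6 in Huh-7.

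Factors known to act on these enzymes' genes responded differently in the 2 lines for the 5 listed, by the test of the difference (edgeR adjusted p from 2.17e-07 to 0.000103), which 31.4% of all genes passed. In Huh-7, where 21.2% of all genes rose, all 5 on the list rose, namely MYC (log2 fold change 1.59), ATF3 (1.03), DDIT3 (0.95), NFE2L2 (0.66) and ATF4 (0.48), the chief activator of serine synthesis genes under amino acid stress. With the Hep-3B label MYC fell (log2 fold change -0.53), and ATF4 (-0.13, edgeR adjusted p = 0.0896), ATF3 (0.20), DDIT3 (-0.11) and NFE2L2 (0.03) did not pass. With upper-quartile factors ATF4 fell there (-0.17, edgeR adjusted p = 0.0328) and the sign of NFE2L2 turned (-0.0041). ATF4 mRNA had 428, 442 and 414 CPM after siARD1 with the Hep-3B label, against 488, 452 and 465 CPM in the controls. In Huh-7 it had 572, 526 and 460.2 CPM after siARD1, against 364, 367 and 390 CPM in the controls. The siARD1 libraries were thus below the controls with the Hep-3B label, where ATF4 did not pass, and above them in Huh-7. The part of ATF4 in the results on the enzymes was not tested. ATF4 is known to be controlled largely through translation of its mRNA, which these data do not measure.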

How the data were processed

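Gene expression was measured by RNA-seq in 12 libraries, 3 in each of 4 groups. Per the labels' protocols, rRNA was removed from total RNA and strand-specific libraries were prepared. The submitters' processing notes name cutadapt 4.6, STAR 2.7.11b and GRCh38, while the counter, annotation, strand setting and treatment of multi-mapping reads are not stated there. The authors deposited raw counts per Ensembl gene identifier, in a file for each line. They list 25720 genes with the Hep-3B label and 25714 in Huh-7, of which 25701 and 25698 matched a symbol. Depth ran from 17327615 to 25960237 counts per library.

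Each line was fitted alone in R 4.3.3 with edgeR 4.0.16 (TMM factors, filterByExpr with a minimum count of 10 and a minimum total of 15, robust quasi-likelihood F-test), with p-values adjusted over all tested genes by the method of Benjamini and Hochberg and a threshold of 0.05. Differences between the lines were the interaction in 1 edgeR fit of the 4 groups over 17122 genes. The SE was derived from the log2 fold change and the F statistic, and 95% intervals use 1.96 SE, so both are approximate. Ratios were compared with exact permutation tests (scipy 1.17.1). Levels per kilobase use merged exons of GENCODE 29, which also gave positions and overlaps, and promoter windows are from RefSeq. The genes most alike were the 5 with the highest Pearson correlation of log2 CPM (prior count 2) after each line's mean was taken off, among genes averaging at least 5 CPM in both lines. Figures were drawn with matplotlib 3.10.9.

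The members, the lists of other genes and the rule that names list genes past the test were chosen with earlier results of these data known, and some listed genes are not reported here. Replicate libraries of a group differed by more than sampling noise, and none was counted as a duplicate. The alternatives were DESeq2 1.42.0, limma-voom (limma 3.58.1), RLE or upper-quartile scaling, testing every gene, requiring 1 CPM in 3 libraries, a false discovery rate of 0.01, the replicate number as a block, both lines in 1 fit, 0.5 CPM added to ratios, other gene lengths, and each library left out in turn. The fits were tested on simulated data.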

Additional observations from a re-analysis of the deposited data

Results flagged for a closer look

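For 8 genes of the enzyme and regulator lists, the response to siARD1 differed between the lines by the interaction test in edgeR, and in each the response was lower with the Hep-3B label than in Huh-7. Among the enzymes, the log2 fold change with the Hep-3B label minus that in Huh-7 was -0.63 for MTHFD1L (adjusted p = 0.00116), -0.50 for SHMT2 (adjusted p = 9e-05) and -0.40 for MTHFD1 (adjusted p = 0.00404). Among the regulators it was -2.11 for MYC (adjusted p = 2.17e-07), -1.05 for DDIT3 (adjusted p = 9.18e-07), -0.81 for ATF3 (adjusted p = 0.000103), -0.62 for NFE2L2 (adjusted p = 2.45e-06) and -0.59 for ATF4 (adjusted p = 1.62e-05). Among all 17122 genes, 31.4% passed the same test. NAA10 fell further in Huh-7, and this test cannot tell that apart from the line.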

How the results depend on the processing

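At a false discovery rate of 0.01 the changed genes labelled Hep-3B numbered 3073 in place of 5070, and the enzymes that fell there 0 in place of 1. With DESeq2 the fallen enzymes there were also 0, and 6 rose. In Huh-7 7 enzymes rose with DESeq2 and 8 with limma-voom, in place of 6. With a library left out, fallen enzymes ranged from 0 to 1 in each line, and rising ones from 4 to 6 with the Hep-3B label and from 6 to 9 in Huh-7. The longest transcript in place of merged exons put the median control level of the 10 enzymes at 21.8 CPM per kilobase in place of 17.2 with the Hep-3B label and at 20.2 in place of 10.5 in Huh-7, and levels with RLE factors were not run. Leaving out 1 library, the MTHFD1L to MTHFD1 difference with the Hep-3B label ranged from -0.15 to 0.068 and the MTHFD2L to MTHFD1 difference in Huh-7 from -0.027 to 0.17, so their signs are not settled. The cause was not tested.

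Signs also turned for values near 0 that passed no test. With the Hep-3B label these were NFE2L2 with upper-quartile factors (-0.0041), MTHFD1L (leave-one-out range -0.087 to 0.16) and SHMT2 (-0.062 to 0.036). Among differences between the lines they were PHGDH (0.00074 with limma-voom, 0.00053 with the replicate block, and -0.12 to 0.13 leaving out 1 library), PSAT1 (-0.10 to 0.22) and ALDH1L2 (-0.0039 to 0.33). Of the other values for single genes, 1123 kept their direction and side of the threshold, 74 were no longer past it and 19 were newly past it.

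Samples with the same replicate number deviated together weakly or not at all (Pearson's r over genes from 0.03 to 0.07 with the Hep-3B label and from -0.06 to 0.05 in Huh-7). Each siARD1 library labelled Hep-3B correlated best with the control of its own number (other pairs from -0.05 to -0.01). This was not so in Huh-7. Whether the number pairs the libraries labelled Hep-3B is thus not settled. With the number as a block, 5597 genes changed with the Hep-3B label and 6328 in Huh-7, and 8 enzymes rose in Huh-7, with PSAT1 (0.52) and PHGDH (0.29) added. Low counts limit MTHFD2, FOLR1 and GLDC with the Hep-3B label, and MTHFD2L and ALDH1L1 in both lines.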
